A study of Mus musculus with 12 samples.

Results

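The injury response of the WT mouse kidney was read by setting the 3 RNA-seq libraries of WT kidneys after UIR against the 3 of WT kidneys after sham surgery, 6 of the 12 libraries in the series. Every gene in the deposited table was a member, 18803 genes in all, of which 15322 held enough counts to be tested. WT mice carried floxed alleles of the ubiquitin ligase Wwp2 (WWP2 fl/fl) on a C57BL/6J background, and were males aged 8 weeks that received sham surgery or UIR. The other 6 libraries came from mice with a conditional knockout of Wwp2 in the proximal tubule (WWP2 PTCKO), treated in the same ways. They entered the fit as groups of their own, and were used otherwise to compare the UIR effect of the genotypes. The abbreviation UIR is kept as the labels give it. The series text places it in a study of how acute kidney injury passes to chronic disease, and how long after UIR the kidneys were taken is not stated in those sources. Libraries are numbered 1 to 3 in each group. No label links one to an animal, and a p-value therefore reflects variation among libraries that may be technical.

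The proximal tubule reabsorbs most of the glucose, phosphate, amino acids and protein filtered by the glomerulus, and burns fatty acids in its mitochondria to do so. After ischaemic injury surviving tubule cells lose this differentiated state and divide, while leukocytes enter and fibroblasts lay down matrix. Persistence of that state is what is meant by failed or maladaptive repair.

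Total expected counts ran from 16411402 to 16953930 in WT sham and from 16779444 to 19645743 in WT UIR. Between 11282 and 11495 genes reached 1 FPKM (fragments scaled to transcript length and library total) after sham, against 13304 to 13426 after UIR. Wwp2 itself, intact in WT, stood at 15.2, 15.7 and 17.1 FPKM after sham and 17.6, 19.1 and 17.9 after UIR (log2 fold change -0.56 with TMM scaling and 0.15 without). It was at 15.6, 16.1 and 17.6 FPKM in the libraries labelled WWP2 PTCKO sham and 22.3, 19.3 and 20.5 in those labelled WWP2 PTCKO UIR, no lower than in WT. These values sum reads over the whole gene and over all kidney cells, and which exons were deleted is not stated, so they do not check the genotype labels. PTCKO below means the libraries so labelled. Levels in FPKM carry no TMM factor, and their ratios therefore differ from edgeR's log2 fold changes. The adipocyte gene Adipoq was at 4.02 FPKM in WT sham 2 and at 0 in the other WT sham libraries, and the adrenal enzyme Cyp11b1 was at 0 in each of the 6.

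UIR changed most of the transcriptome. A gene was called, and is said to have risen or fallen, at an adjusted p under 0.05 in the quasi-likelihood test of edgeR. Of the 15322 genes 12038 were called (78.6%), 6458 higher (42.1%) and 5580 lower (36.4%). With so many calls the choice of scaling decided part of the split: 53.6% of called genes were higher with TMM scaling and 78.7% with library totals alone. The median log2 fold change over all genes was 0.10 with TMM and 0.82 with totals alone. The stricter count used below therefore asks for a call in the same direction under 6 scalings (TMM, RLE, upper-quartile and none for counts, and log2 FPKM and log2 TPM in limma). That left 6237 of the 6458 genes higher (40.7% of all) and 2390 of the 5580 lower (15.6% of all). Fold changes lay higher without scaling and in limma (medians 0.82, 0.55 and 0.76). The rule is therefore strict for falls and removes few rises, so a rise that holds under all 6 scalings says little more than its call. FPKM of the 3 UIR libraries lay wholly above that of the 3 sham libraries for 67.8% of genes and wholly below it for 18.8%. At least 2-fold changes were called for 4148 genes upward (27.1%) and 2776 downward (18.1%). Counts of list members below are read against these shares, and each median log2 fold change against the all-gene median of 0.10.

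**Figure D1:**
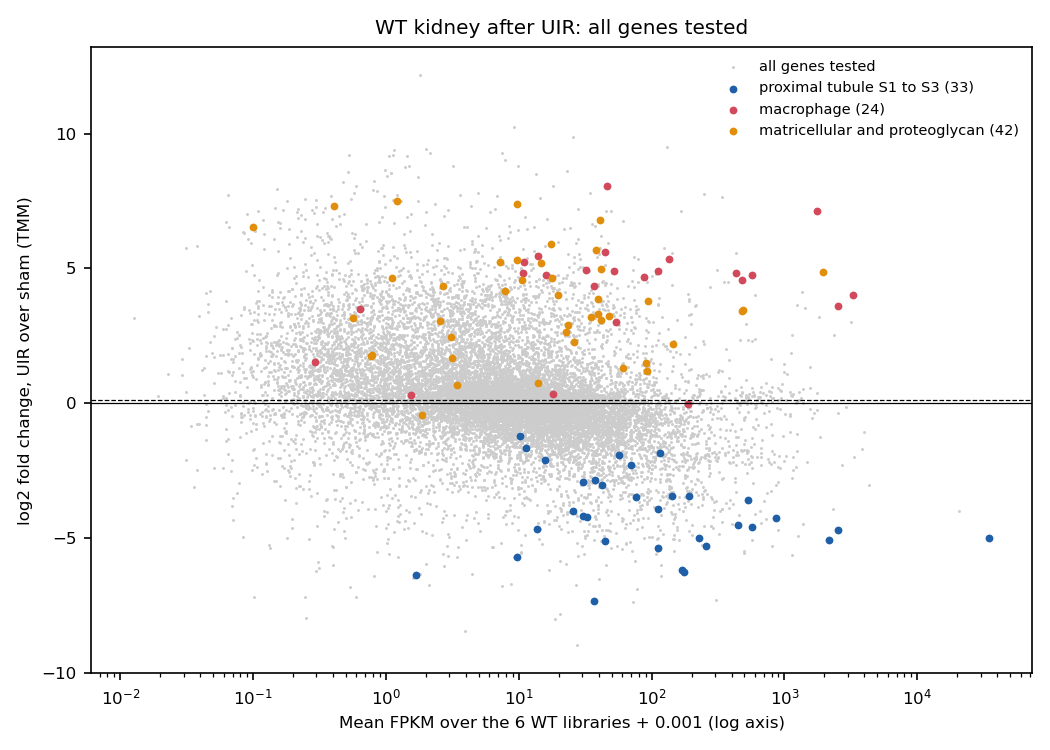
Log2 fold change of each tested gene (UIR over sham in WT, edgeR with TMM; vertical axis) against its mean FPKM over the 6 WT libraries (0.001 added, log axis), with the members of 3 gene lists coloured over the grey cloud of all 15322 genes. The 33 proximal tubule segment markers lie below zero, and the macrophage and matricellular genes lie almost wholly above it.

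The most abundant transcripts changed. In WT sham the 10 most abundant genes took 22.8% to 23.1% of all TPM (transcripts scaled to a common total), and in WT UIR the 10 most abundant took 7.58% to 8.29%. Gpx3 and the ferritin light chain gene Ftl1 were in both lists. Kap, an androgen-regulated protein of the proximal tubule, held 10.7% of TPM after sham, 106627 ± 1213 TPM, and 0.615% after UIR, 6148 ± 1782 TPM (SD, n = 3). Gpx3, the glutathione peroxidase that the kidney secretes into plasma, went from 60497 ± 418 to 6980 ± 2744 TPM. The other leading genes after sham included Fxyd2, Fth1, Gapdh, Slc34a1, Acy3 and Klk1, each of which fell (log2 fold changes -5.09 to -1.69). After UIR the list was headed by Apoe, a lipid carrier, which rose from 382 ± 60.2 to 11369 ± 1924 TPM, and by Spp1, which encodes osteopontin and rose from 717 ± 31.1 to 10611 ± 570 TPM. Others in the list were Cd74 and B2m of antigen presentation, Mgp, an inhibitor of calcification, Lyz2, the lysozyme of myeloid cells, and the actin-binding peptide gene Tmsb4x. Lyz2 went from 14.6, 19.2 and 12.4 FPKM in the 3 sham libraries to 3851, 2526 and 4089 in the 3 UIR libraries. In this whole-kidney RNA, fewer cells of a type and less RNA per cell cannot be told apart.

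Every marker of the 3 proximal tubule segments was lower after UIR. In S1, the segment that takes up most glucose and phosphate, 12 of 12 markers fell (median log2 fold change -3.45). In S2 it was 9 of 9 (median -5.02) and in S3 12 of 12 (median -3.89), and 31 of these 33 falls held under all 6 scalings. The sodium-phosphate cotransporter Slc34a1 was at 4736, 4675 and 4792 FPKM after sham and 191, 423 and 261 after UIR (log2 fold change -4.73, SE 0.31, edgeR adjusted p = 8.47e-09). The glucose cotransporter Slc5a2, target of the gliflozin drugs, was at 257, 234 and 255 FPKM after sham and 18.1, 59.7 and 34.7 after UIR (log2 fold change -3.44, SE 0.37). For both genes each UIR library lay below each sham library, and UIR 2 kept the most. The smallest fall of the 33 was that of the high-affinity glucose cotransporter Slc5a1 in S3 (log2 fold change -1.21, SE 0.14). The 3 UIR libraries were not equally depleted: UIR 2 was the highest of them for 12 of 12 S1, 7 of 9 S2 and 9 of 12 S3 markers, against 36.5% of all tested genes.

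The transcription factors that maintain proximal tubule identity also fell, 14 of 15 in all and 10 of them under all 6 scalings. Hnf4a, a nuclear receptor needed for proximal tubule maturation, was at 177, 205 and 168 FPKM after sham and 28.5, 40.7 and 26.7 after UIR (log2 fold change -3.23, SE 0.18). Ppara, the nuclear receptor of fatty acid oxidation, fell by 3.99 on the log2 scale. Of the machinery that retrieves filtered protein, the receptors Lrp2 (megalin) and Cubn (cubilin) and the cubilin partner Amn fell by 4.25, 4.55 and 3.25, and the folate receptor Folr1 by 3.57. In the same list Ctsb, a lysosomal protease also abundant in macrophages, rose (log2 fold change 1.09, SE 0.13).

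**Figure D2:**
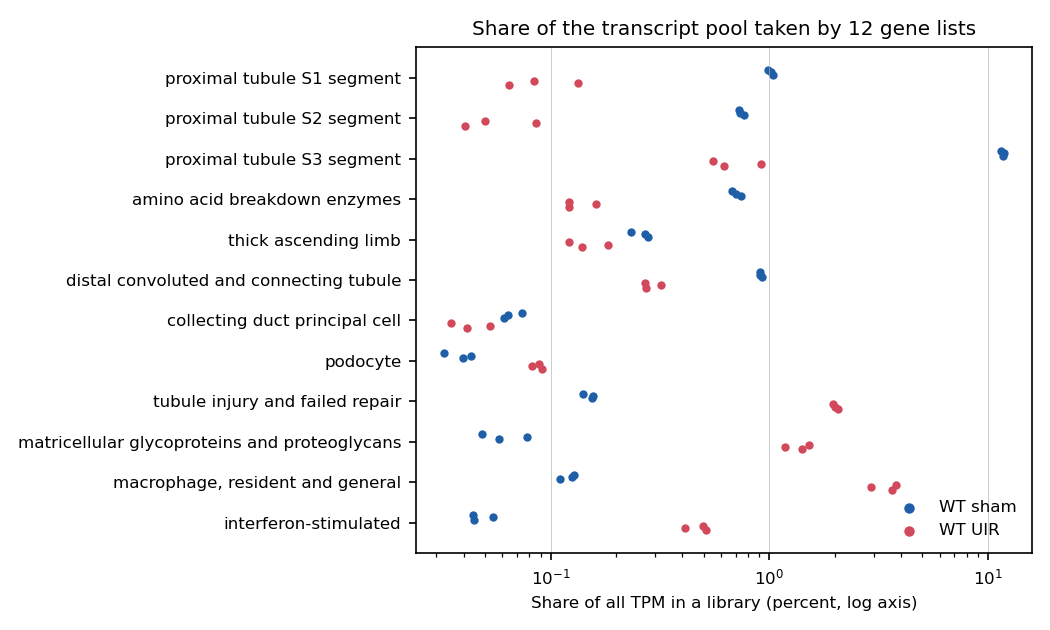
Share of all TPM taken by 12 gene lists (log axis, percent) in each of the 3 WT sham (blue) and 3 WT UIR (red) libraries, 1 point per library. The S3 list lies at 11.4% to 11.8% after sham and at 0.553% to 0.92% after UIR, and the macrophage list moves the opposite way.

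Other transport lists, which share members such as Slc22a7 with the segment markers, did not all move one way. Of 23 organic anion and cation transporters, which secrete drugs and toxins into urine, 20 fell and 3 rose. Slc22a7 (Oat2) was at 57.4, 73.1 and 87.5 FPKM after sham and 1.2, 0.29 and 0.73 after UIR (log2 fold change -7.33, SE 0.57), and Slc22a2, a cation transporter, fell by 5.05. The 3 that rose were the efflux pumps Abcc3, at 0.19, 0.27 and 0.14 FPKM after sham and 7.84, 6.61 and 7.08 after UIR, and Abcc1 (log2 fold change 1.17) and the prostaglandin transporter Slco2a1 (log2 fold change 1.36). Of the 9 aquaporins tested 8 fell, among them the proximal water channel Aqp1 (log2 fold change -3.46) and the collecting duct channels Aqp2, Aqp3 and Aqp4 (log2 fold changes -4.84, -3.42 and -3.88). The exception was Aqp9, a glycerol and water channel of leukocytes and liver, at 0, 0.02 and 0 FPKM after sham and 1.7, 1.92 and 1.64 after UIR. Subunits of the sodium pump moved in opposite directions. Of 13 tested members of the list 3 fell, among them the beta subunit Atp1b1 and the renal regulator Fxyd2, by 2.00 and 3.02. Another 9 rose, among them the regulator Fxyd5 (dysadherin), which stood at 18, 22.6 and 20.3 FPKM after sham and 416, 339.9 and 471 after UIR (log2 fold change 3.63, SE 0.14).

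Distal segments were affected unequally. In the distal convoluted and connecting tubule 11 of 12 markers fell (median log2 fold change -2.11). The calcium-binding proteins Pvalb and Calb1 showed the largest falls, Pvalb from 35.1, 28.1 and 49.4 FPKM to 0.28, 0.11 and 0.33 (log2 fold change -8.00, SE 0.49). In the thick ascending limb 9 of 13 fell and 1 rose, and 4 of the falls held under all 6 scalings, with a median log2 fold change of -0.71 that turned to 0.01 without scaling. Umod, which encodes uromodulin, the most abundant protein of normal urine, was at 754, 721 and 682 FPKM after sham and 268, 420.5 and 278 after UIR (log2 fold change -1.87). Egf, made by the same cells, was at 242, 228 and 156 FPKM after sham and 5.46, 8.7 and 6.43 after UIR (log2 fold change -5.59, SE 0.47), a far larger fall. The 1 that rose was the tight junction protein Cldn16 (log2 fold change 0.50), and it was no longer called without WT sham 2, WT sham 3, WT UIR 2 or WT UIR 3 (0.46, 0.45, 0.40 and 0.49). Among collecting duct principal cell markers 9 of 12 fell. The 1 that rose was the transcription factor Gata3 (log2 fold change 0.34), whose call was lost without WT sham 1, WT sham 3 or WT UIR 2 (0.30, 0.30 and 0.24). Among intercalated cell markers 10 of 14 fell, 6 of them under all 6 scalings (median log2 fold change -1.04, and -0.33 without scaling), and Adgrf5, Kit, Atp6v0d2 and Foxi1 (named after its value was seen) rose by 1.23, 1.17, 0.93 and 0.85. UIR 2 was the highest UIR library for 12 of the 12 principal cell and 10 of the 12 distal convoluted tubule markers. Podocyte markers ran the other way: 12 of 16 rose and 2 fell (median log2 fold change 0.69), with Wt1 at 4.02, 4.99 and 2.85 FPKM after sham and 18.7, 18.3 and 16.1 after UIR (log2 fold change 1.46) and Podxl, which encodes the sialomucin podocalyxin, at 31.9, 34 and 24.1 FPKM after sham and 74.4, 67.5 and 66.8 after UIR (log2 fold change 0.51). The 2 that fell were the growth factor Vegfa, also made by tubules (log2 fold change -1.88), and Clic5 (-0.65 with TMM scaling and 0.06 without).

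Slc14a2, the urea transporter of the inner medulla, had 0 counts in the WT sham libraries and stood at 1.88, 2.06 and 2.9 FPKM in WT UIR. It was at 0.61, 8.32 and 0.15 FPKM in the 3 PTCKO sham libraries. The prostate stem cell antigen gene Psca, found in urothelium, was at 0, 0.08 and 0 FPKM in WT sham and 1.7, 3.03 and 3.54 in WT UIR. In PTCKO sham it was at 1.01, 2.81 and 0.08. How much inner medulla and papilla each kidney sample held is not stated, and its part in the thin limb values was not tested. The tight junction gene Cldn4 on the thin limb list rose (log2 fold change 3.48, SE 0.14).

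Enzymes of amino acid breakdown fell throughout. All 32 tested enzymes fell (median log2 fold change -3.33), 30 of them under all 6 scalings. The enzymes of tyrosine breakdown Hpd, Hgd and Fah fell by 8.97, 4.70 and 3.78. Hpd was at 49.1, 50.6 and 63.7 FPKM after sham and 0.23, 0.15 and 0.13 after UIR (log2 fold change -8.97, SE 0.34), the largest fitted fall of any tested gene. Dmgdh and Bhmt of the choline and betaine route fell by 6.75 and 6.37. The arginine and polyamine enzymes divided. Ass1, by which the proximal tubule makes arginine for the body, was at 2699, 2557 and 2426 FPKM after sham and 122, 269 and 167 after UIR (log2 fold change -4.50, SE 0.29), and Odc1, which starts polyamine synthesis, fell by 3.59. The arginases Arg2 and Arg1 rose (log2 fold changes 3.03 and 2.79), with Arg2 at 0.48, 1.12 and 1.57 FPKM after sham and 12.1, 15.6 and 14.7 after UIR.

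Peroxisomal genes fell in 38 of 41 cases (median log2 fold change -1.75), and 2 rose. The fatty acid carrier Abcd2 was among those that rose (log2 fold change 3.17, SE 0.32), at 0.05, 0.15 and 0.08 FPKM after sham and 1.6, 1.29 and 1.34 after UIR. Phase II conjugation enzymes, which attach glucuronate, glutathione or glycine to drugs, fell in 27 of 32 cases, led by Acsm3, Ugt3a1 and Ugt3a2 (log2 fold changes -5.39, -5.30 and -5.02). Values for single Ugt and Gst genes are uncertain, because near-identical copies share reads. Among cytochromes P450 31 of 48 fell and 10 rose, and the rise of Cyp1b1, a P450 found outside the liver, was the largest of them (log2 fold change 3.50; 4.07, 6.16 and 3.73 FPKM after sham and 86.1, 83.6 and 76.7 after UIR). Of the mineral and vitamin genes, Kl, which encodes the FGF23 co-receptor Klotho, was at 144, 148 and 111 FPKM after sham and 7.9, 15.6 and 9.16 after UIR (log2 fold change -4.33, SE 0.28), and the vitamin D receptor Vdr fell by 2.85. The retinoic acid synthases Aldh1a2 and Aldh1a3 rose by 4.34 and 4.34.

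Sterol synthesis genes fell. Of the 25 sterol synthesis genes 23 fell and 0 rose (median log2 fold change -1.52), with Idi1 falling by 3.52, and 14 falls held under all 6 scalings. Of 26 genes of cholesterol efflux and lipid storage 13 rose and 8 fell, beside 42.1% and 36.4% of all genes. The efflux pumps Abca1 and Abcg1 rose (log2 fold changes 2.79 and 3.25), as did their lipid partners Apoe and Pltp (log2 fold changes 4.02 and 4.93). Abca1 was at 1.38, 1.64 and 1.78 FPKM after sham and 20.1, 15.7 and 18.8 after UIR. The scavenger receptor Msr1, a macrophage gene, rose by 6.21, whereas the fatty acid uptake receptor Cd36 and the triglyceride synthase Dgat2 fell by 2.26 and 3.82. Markers of macrophages moved with the efflux genes: the 24 tested macrophage genes took 0.111%, 0.125% and 0.127% of TPM after sham and 3.65%, 2.91% and 3.79% after UIR, and their part in the efflux result was not tested.

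Glycolytic genes did not move as a block, with 9 of 25 higher and 15 lower. The hexokinases Hk2 and Hk3, the enolase Eno2 and the phosphofructokinase Pfkp rose by 5.30, 5.14, 3.81 and 1.00, each under all 6 scalings. Hk3, a hexokinase of myeloid cells, was at 0.13, 0.3 and 0.2 FPKM after sham and 12.4, 7.98 and 14.2 after UIR, and Hk2, an inducible hexokinase, was at 0.04, 0.11 and 0.03 FPKM after sham and 4.52, 3.53 and 4.12 after UIR. Genes of the mitochondrial translation machinery fell together: 76 of 78 mitochondrial ribosomal protein genes were lower (median log2 fold change -1.17), 54 of them under all 6 scalings, and 0 were higher. Their cytosolic counterparts did not. Of 77 ribosomal protein genes of the Rpl and Rps families 18 rose and 6 fell (median log2 fold change 0.15), and the family took 5.54% of TPM after sham and 11.2% after UIR. Mitochondrial biogenesis factors Esrra and Ppargc1a fell by 2.21 and 1.65, and the deacetylase Sirt3 by 2.72.

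**Figure D3:**
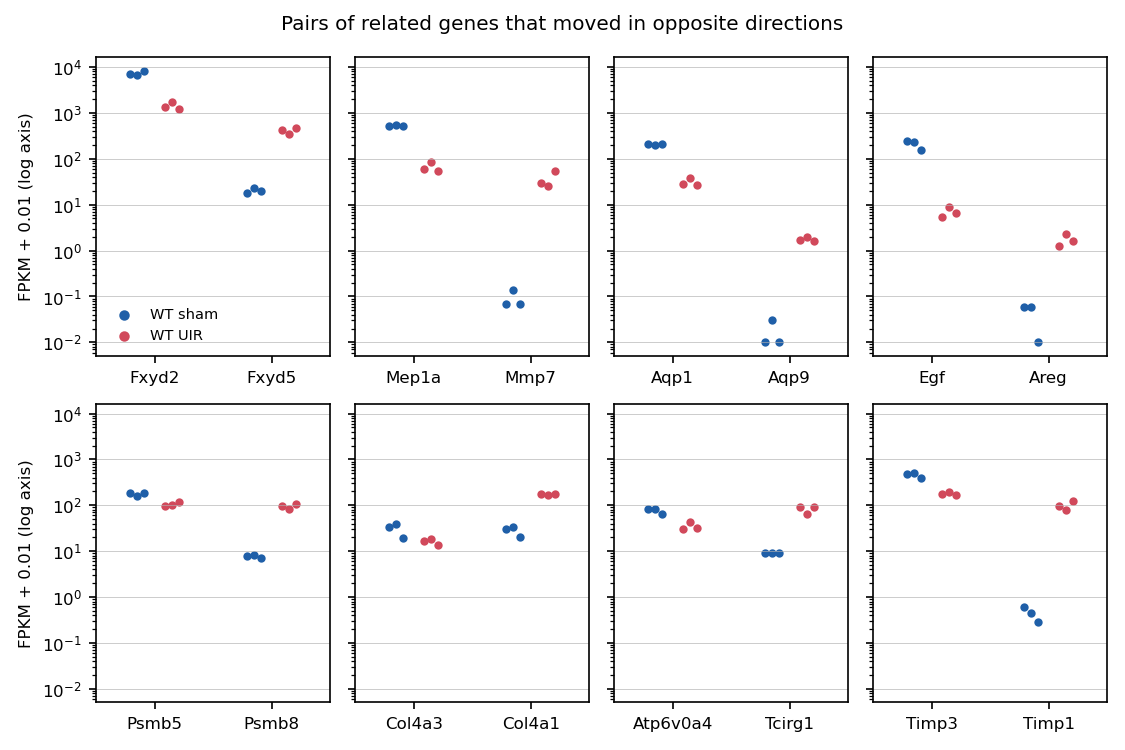
FPKM (log axis, 0.01 added so that 0 can be drawn) of 16 genes in the 3 WT sham (blue) and 3 WT UIR (red) libraries, 1 point per library, set side by side as 8 pairs of related genes. The pairs were picked so that the gene on the left was lower after UIR and the gene on the right higher, with no overlap between the groups. Their pattern is therefore not a result. Over all tested genes 18.8% lay wholly lower after UIR and 67.8% wholly higher.

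Tubule injury genes rose in 24 of 25 cases (median log2 fold change 3.00), 22 of them at least 2-fold. Havcr1, which encodes the urinary injury marker KIM-1, was at 0.4, 0.47 and 0.09 FPKM after sham and 51.2, 53.5 and 40.8 after UIR (log2 fold change 6.51, SE 0.40). Lcn2, which encodes the iron-binding protein NGAL, was at 1.03, 3.03 and 2.13 FPKM after sham and 675, 650.4 and 688 after UIR (log2 fold change 7.63, SE 0.38). The exception was the integrin Itgb6, which fell by 1.40. Keratins of simple epithelium rose, Krt19 from 0.61, 0.63 and 0.34 FPKM to 47.2, 62 and 56.9, and so did Krt20, a keratin of urothelium and gut (log2 fold change 6.34). Sprr2f, a cornified envelope protein of skin, was at 0, 0.11 and 0 FPKM after sham and 22.7, 30.9 and 27 after UIR. Of 24 annexin and S100 genes tested 19 rose, with Anxa1 and Anxa2 at log2 fold changes of 4.60 and 3.61. Of the 4 that fell, S100g, the calcium carrier of the distal tubule, was the 1 whose fall (log2 fold change -4.10) held under all 6 scalings. Sox9, a transcription factor of regenerating tubule cells, was at 0.14, 0.27 and 0.2 FPKM after sham and 8.54, 10.1 and 8.55 after UIR (log2 fold change 4.75), and Sox4 rose by 2.93.

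Cell cycle arrest and cell death genes moved beside these. Cdkn2a, which encodes p16 and p19Arf and marks senescent cells, had 0 counts in the sham libraries and stood at 3.38, 3.85 and 3.28 FPKM after UIR. Its neighbour Cdkn2b rose by 5.19, and Cdkn1a, the p53 target p21, by 0.83. Gadd45g and Plk3, other stress-induced growth brakes, fell by 3.25 and 1.86. Necroptosis and pyroptosis genes rose in 13 of 17 cases (median log2 fold change 3.10), with the kinase Ripk3 at 0.37, 0.3 and 0.39 FPKM after sham and 6.55, 7.98 and 7.79 after UIR, the pore-forming Gsdmd at 2.61, 2.62 and 2.22 FPKM after sham and 34.3, 33 and 37.4 after UIR and the caspase Casp4 rising by 4.50. Of 29 apoptosis genes 18 rose and 8 fell (median log2 fold change 0.62), and the mitochondrial factors Cycs, Aifm1 and Endog were among the falls, by 2.33, 2.23 and 2.43. Of the immediate-early genes 16 of 23 rose, and Atf3, Egr2 and Runx1 had log2 fold changes of 3.24, 5.38 and 4.74. Of 22 heat shock genes 4 rose and 13 fell, 3 of the falls under all 6 scalings, and the median log2 fold change of -0.46 was 0.26 without scaling. Hspb1 and Cryab were among the rises (3.01 and 1.89), and the mitochondrial chaperonins Hspd1 and Hspe1 among the falls (-2.65 and -2.02).

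The 41 proteasome genes gave 34 falls and 5 rises, but 8 falls held under all 6 scalings and the median of -0.74 was -0.03 without scaling. The 5 rises held under all 6. Psmb8, Psmb9 and Psmb10, the interferon-inducible catalytic subunits of the immunoproteasome, rose by 2.94, 2.64 and 2.03, the interferon-inducible activator subunits Psme1 and Psme2 (named after their values were seen) rose by 1.07 and 0.92, and the standard catalytic subunit Psmb5 fell by 1.45. Psmb8 was at 7.68, 8.1 and 7.18 FPKM after sham and 98.8, 81.8 and 108 after UIR, and Psmb5 was at 183, 157 and 183 FPKM after sham and 94.9, 102 and 117 after UIR. Of 46 lysosomal genes 18 rose and 18 fell, shares near those over all genes, against 30 and 9 without scaling and 35 and 7 in limma on log2(TPM + 1). Over all 15322 genes these settings also gave more rises, 10336 against 2791 falls without scaling and 10994 against 2397 in limma on log2(TPM + 1). The cathepsins Ctss, Ctsk and Ctsc, abundant in myeloid cells or osteoclasts, rose by 5.58, 4.90 and 3.52. The hydrolases Neu1, Arsb and Galns fell by 2.58, 2.30 and 1.95. Among proton pump subunits Tcirg1, the a3 subunit of osteoclasts and macrophages, rose by 2.48, and the renal a4 subunit Atp6v0a4 fell by 1.84. Cytoskeletal genes rose in 29 of 35 cases, led by the actin regulators Capg and Coro1a (log2 fold changes 4.29 and 3.91), while Vil1, the villin of brush border microvilli, fell by 2.18.

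Matrix genes were raised from very low levels, with few exceptions. Of 42 matricellular and proteoglycan genes 41 rose and 0 fell (median log2 fold change 3.42, or 3.36 with genes at 0 in a group set to the fold against 3 counts over that group), each of the 41 under all 6 scalings. Tnc, which encodes tenascin-C, was at 0.54, 0.71 and 0.26 FPKM after sham and 27.7, 29 and 30.7 after UIR (log2 fold change 5.20, SE 0.28), and Ltbp2, a latent TGF-beta binding protein, was at 0.07, 0.14 and 0 FPKM after sham and 21.4, 17.5 and 18.7 after UIR (log2 fold change 7.39). Sparc, a collagen-binding glycoprotein, reached the highest levels of those named, at 54.6, 62.1 and 40.6 FPKM after sham and 947, 808 and 963 after UIR. Fibrillar collagens Col1a1 and Col3a1 rose by 5.36 and 5.78, and Col3a1 was at 2.29, 4.12 and 1.81 FPKM after sham and 265, 209 and 258 after UIR. Against them, Col27a1 fell by 2.27. In basement membrane the chains parted by network. Col4a1 and Col4a2, the chains of most basement membranes, rose by 1.92 and 1.67. Col4a3 and Col4a4, which build the collagen IV network of the mature glomerulus and some tubules, fell by 1.62 and 1.53, with Col4a3 at 33.2, 38.3 and 19.6 FPKM after sham and 16.3, 18.3 and 13.7 after UIR.

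Proteases that cut matrix, and their inhibitors, rose in 33 of 42 cases. Mmp7, a matrilysin made by injured tubules, was at 0.06, 0.13 and 0.06 FPKM after sham and 30.3, 25.4 and 53.5 after UIR (log2 fold change 8.05, SE 0.71). Mmp12, the macrophage elastase, was at 1.2, 2.01 and 1.02 FPKM after sham and 616, 322 and 557 after UIR (log2 fold change 7.76, SE 0.45). The inhibitor Timp1 rose by 7.12 and its relative Timp3, which is held in the matrix of normal kidney, fell by 2.04 (476, 496 and 384 FPKM after sham and 179, 194 and 165 after UIR). The brush border metalloproteases Mep1a and Mep1b fell by 3.68 and 5.98. Fibroblast and pericyte markers rose in 26 of 31 cases, with Pdgfra and Pdgfrb at log2 fold changes of 3.52 and 2.50, and Acta2, the smooth muscle actin of myofibroblasts, at 18.2, 21.9 and 17.8 FPKM after sham and 139, 132 and 142 after UIR (log2 fold change 2.15). Ren1, the renin gene of juxtaglomerular cells on the same list, fell by 1.87.

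Ligands and receptors that drive repair and fibrosis moved selectively. All 3 TGF-beta ligands rose: Tgfb1 was at 5.89, 8.03 and 6.05 FPKM after sham and 69.8, 67.3 and 76.7 after UIR, and Tgfb2 and Tgfb3 rose by 3.68 and 3.13. Bmp7, which opposes TGF-beta in the kidney, fell by 2.02, and Grem1, a BMP antagonist, rose from 0, 0 and 0.07 FPKM to 1.92, 1.41 and 1.87. In the EGF family, the loss of Egf described above went with a fall of its receptor Egfr by 1.07 and with rises of the other receptor ligands Areg and Tgfa, the latter by 2.32. Areg was at 0.05, 0.05 and 0 FPKM after sham and 1.22, 2.23 and 1.58 after UIR. Wnt genes rose in 30 of 43 cases. Axin2, a feedback target of beta-catenin, was at 0.09, 0.11 and 0.06 FPKM after sham and 8.37, 6.56 and 6.29 after UIR (log2 fold change 5.68), and the ligands Wnt4 and Wnt7b rose by 2.96 and 3.46. The secreted Wnt inhibitor Notum fell, at 18.9, 16.1 and 19.6 FPKM after sham and 1.41, 1.94 and 1.39 after UIR (log2 fold change -4.24). Of the pressor systems, Ace and Ren1 fell by 3.96 and 1.87, and Edn1, which encodes endothelin-1, was at 0.71, 0.85 and 0.34 FPKM after sham and 13.8, 16.1 and 16.9 after UIR (log2 fold change 3.92). Hlf and Tef, clock output factors of the PAR bZIP family, fell by 4.71 and 2.24, and Bhlhe41 rose by 3.21. Klf15, a steroid-responsive factor of kidney and podocyte, was at 71, 69.3 and 72 FPKM after sham and 7.85, 9.27 and 7.42 after UIR (log2 fold change -3.79).

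**Figure D4:**
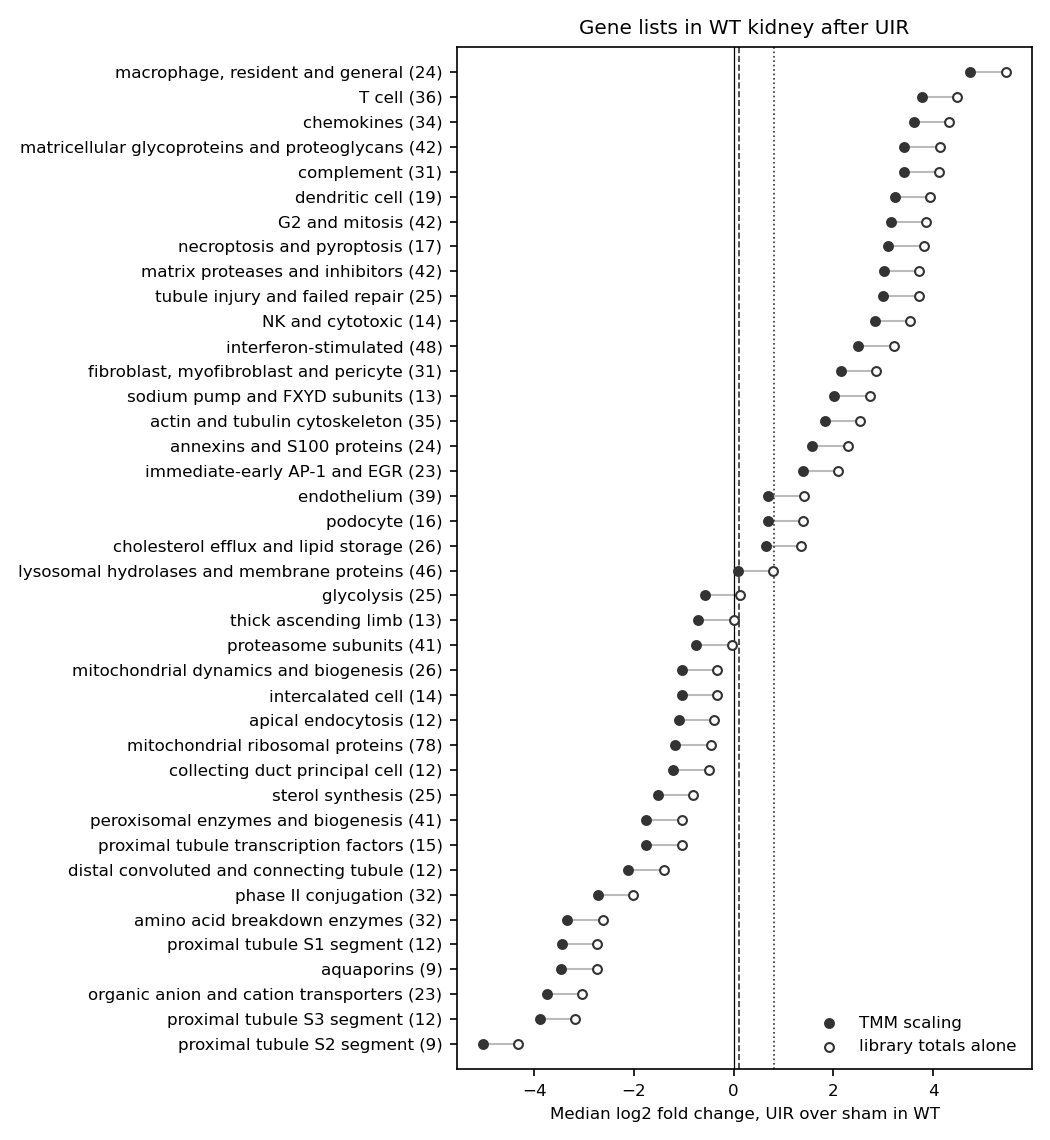
Median log2 fold change (UIR over sham in WT) of 40 gene lists with TMM scaling (filled) and with library totals alone (open), ordered by the first, with the number of genes tested in brackets. Dashed and dotted lines mark the medians over all genes under the same 2 settings, 0.10 and 0.82; lists whose points fall on both sides of zero have no direction that both settings share.

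Macrophage genes had the highest median of the immune lists. Of 24 macrophage genes 22 rose and 0 fell (median log2 fold change 4.75), and of 22 monocyte and inflammatory macrophage genes 21 rose. Trem2, a lipid receptor of macrophages, was at 0.34, 0.23 and 0.06 FPKM after sham and 107, 69.8 and 100.1 after UIR (log2 fold change 8.05, SE 0.30). Gpnmb, a glycoprotein of lipid-laden macrophages, was at 0.13, 0.37 and 0.16 FPKM after sham and 372, 163 and 248 after UIR (log2 fold change 9.51, SE 0.71). Of 19 dendritic cell genes 19 rose, with the integrin Itgax and the chemokine receptor Ccr7 at 4.99 and 4.79. Of 15 tested neutrophil genes 11 rose and 1 fell (median log2 fold change 3.31). The 1 that fell was Ly6g, the defining surface marker of the lineage in mice, at 0.7, 0.79 and 0.82 FPKM after sham and 0.06, 0 and 0 after UIR. S100a8 rose by 1.63 and S100a9 by 1.22, less than Lcn2, which injured tubules also make. The call of S100a9 was lost without WT sham 1 (0.98) or WT UIR 3 (0.84). UIR 3 was the highest UIR library for 13 of the 15 tested neutrophil genes, against 27.6% of all tested genes. Fpr1, a formyl peptide receptor of neutrophils, was at 1.04, 1.44 and 10.3 FPKM in the 3 UIR libraries and had 0 counts after sham. Of the 6 tested genes of mast cells, basophils and eosinophils 2 rose and 1 fell, and the fall did not hold under all 6 scalings. Siglecf on that list, a marker of eosinophils and some macrophages, had 0 counts after sham and stood at 2.42, 1.69 and 2.18 FPKM after UIR.

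T cell genes rose in 34 of 36 cases, with Cd3e at 0.46, 0.35 and 0.21 FPKM after sham and 7.48, 6.01 and 6.1 after UIR (log2 fold change 3.55, SE 0.26) and Cd4 at 0.18, 0.26 and 0.08 FPKM after sham and 11.7, 7.25 and 8.73 after UIR. Among the 2 that fell was the inhibitory receptor Tigit (log2 fold change -0.86), whose fall did not hold under all 6 scalings and turned to 0.10 in limma on log2(TPM + 1). All 14 tested NK and cytotoxic genes rose, with Nkg7 and Gzmk at 3.18 and 3.89. B cell genes were less uniform, 13 of 21 up and 1 down, with Cd79b rising by 2.72 and the complement receptor Cr2 falling by 2.03. Among complement genes 24 of 31 rose. C3 was at 5.49, 6.3 and 2.71 FPKM after sham and 227, 178 and 226 after UIR and the receptor C3ar1 rose by 5.73. Cfb, C8a and C8g were among the 5 that fell, by 2.46, 5.96 and 3.17, with Cfb going from 186, 169 and 181 FPKM to 53.8, 55.3 and 51.7. Clotting genes split likewise: of 31 tested 18 rose, 16 of them at least 2-fold, and 10 fell (median log2 fold change 1.40). F3, which encodes tissue factor, rose by 1.40, and Proc, F13b and Serpinf2 were among the falls, by 4.29, 5.01 and 5.05.

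Chemokines rose in 29 of 34 cases (median log2 fold change 3.62, or 3.43 with genes at 0 in a group set to the fold against 3 counts over that group). Ccl2, which recruits monocytes, was at 0.39, 0.4 and 0.62 FPKM after sham and 74.7, 76.1 and 71.7 after UIR (log2 fold change 6.56, SE 0.23), and Cxcl5, an attractant of neutrophils, at 0, 0.06 and 0.04 FPKM after sham and 12.9, 11.5 and 16.8 after UIR. Ccl28, a mucosal chemokine of epithelium, fell by 2.76. Promoters were searched for NF-kB letters (GGGA, any base, then TTTCC, on both strands) in windows from 250 bases before to 50 after the RefSeq start (GRCm38.p6). They were present for 3 of 25 chemokine genes with a RefSeq promoter (12%), against 0.551% of the 12151 tested genes with one. The 3 were the neighbouring genes Cxcl2, Cxcl3 and Cxcl1, and the 200 bases before each start are shown because these chemokines share the match, which is in capitals.
Cxcl2 (chr5:90903699-90903898, plus strand): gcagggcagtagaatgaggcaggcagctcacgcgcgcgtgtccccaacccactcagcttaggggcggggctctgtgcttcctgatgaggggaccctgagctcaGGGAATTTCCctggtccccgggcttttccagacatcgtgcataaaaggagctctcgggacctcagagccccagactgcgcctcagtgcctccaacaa
Cxcl3 (chr5:90785901-90786100, plus strand): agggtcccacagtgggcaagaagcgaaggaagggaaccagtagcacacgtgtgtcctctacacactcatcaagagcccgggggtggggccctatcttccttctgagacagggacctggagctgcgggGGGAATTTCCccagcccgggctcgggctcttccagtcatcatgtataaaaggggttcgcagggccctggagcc
Cxcl1 (chr5:90891045-90891244, plus strand): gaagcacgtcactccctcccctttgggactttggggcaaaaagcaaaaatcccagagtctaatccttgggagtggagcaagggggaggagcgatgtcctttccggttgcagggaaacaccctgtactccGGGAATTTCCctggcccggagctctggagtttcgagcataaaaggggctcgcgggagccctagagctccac
The match began 97, 73 and 71 bases before the start. Cxcl2 was at 0.06, 0.24 and 0.11 FPKM after sham and 18.2, 17.3 and 23.1 after UIR, Cxcl3 at 0, 0 and 0 FPKM after sham and 0.88, 0.65 and 0.64 after UIR and Cxcl1 at 3.34, 28.1 and 8.85 FPKM after sham and 44.2, 86.7 and 52 after UIR. The log2 fold changes of Cxcl2 and Cxcl1 were 6.41 and 1.49, and the call of Cxcl1 was lost without WT sham 1, WT sham 3 or WT UIR 2 (1.03, 1.28 and 1.15) and in DESeq2. Genes with the same letters thus differed in level. A match is a description of the letters and not evidence of binding.

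Interferon-stimulated genes rose in all 48 tested cases, 44 of them at least 2-fold (median log2 fold change 2.50), and each under all 6 scalings. Isg15, a ubiquitin-like modifier, was at 1.87, 1.9 and 2.96 FPKM after sham and 33.8, 24.9 and 29.4 after UIR (log2 fold change 3.01, SE 0.19). UIR 2, the library that kept the most proximal tubule transcript, was the lowest of the UIR libraries for 43 of the 48. Over all tested genes it was the lowest for 29.4%. Letters of the interferon-stimulated response element (GAAA and GAAA with any 2 bases between, both strands, matches allowed to overlap) lay in the promoters of 22 of 36 list genes (61.1%), against 3.84% of all. Shown, with matches in capitals, are the 200 bases before the start for 3 genes with large rises whose stretch held a match.
Trim30a (chr7:104465194-104465393, minus strand): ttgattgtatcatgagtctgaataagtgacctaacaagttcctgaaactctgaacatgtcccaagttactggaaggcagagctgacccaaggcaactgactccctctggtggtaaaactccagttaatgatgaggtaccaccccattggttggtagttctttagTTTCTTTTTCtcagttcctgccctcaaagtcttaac
Oas1a (chr5:120907526-120907725, minus strand): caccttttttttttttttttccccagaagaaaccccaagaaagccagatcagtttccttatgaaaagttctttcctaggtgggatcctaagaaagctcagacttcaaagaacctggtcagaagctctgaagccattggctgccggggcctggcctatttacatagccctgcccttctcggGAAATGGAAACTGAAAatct
Isg15 (chr4:156200819-156201018, minus strand): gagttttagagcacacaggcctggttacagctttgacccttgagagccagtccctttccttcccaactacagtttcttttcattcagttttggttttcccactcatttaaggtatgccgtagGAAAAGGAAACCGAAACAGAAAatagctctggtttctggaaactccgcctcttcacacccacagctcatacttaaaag
Oas1a, a sensor of viral RNA, was at 1.9, 2.53 and 2.33 FPKM after sham and 40.5, 31 and 36.4 after UIR, and Trim30a, a tripartite motif protein, at 1.01, 0.98 and 0.85 FPKM after sham and 17.4, 14.4 and 15.4 after UIR (log2 fold changes 3.28 and 3.33). Genes of MHC class I presentation moved with them, 19 of 23 up, with the peptide pump Tap1 rising by 2.83 and the transactivator Nlrc5 by 3.31.

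Proliferation genes rose, with the higher median for those of mitosis. Of 42 genes of G2 and mitosis 41 rose and 1 fell (median log2 fold change 3.16), and of 43 genes of S phase 36 rose and 3 fell (median 1.30). Levels stayed low. Mki67, the gene of the Ki-67 antigen, was at 0.17, 0.17 and 0.15 FPKM after sham and 4.41, 3.51 and 4.94 after UIR (log2 fold change 3.98, SE 0.21), and Top2a, a topoisomerase of dividing cells, at 0.22, 0.24 and 0.15 FPKM after sham and 5.57, 4.77 and 6.42 after UIR (log2 fold change 4.08). UIR 3 was the highest UIR library for 29 of the 42, against 27.6% of all tested genes. Of the 3 falls in S phase 1 held under all 6 scalings. In the mitosis list Cks2 fell (log2 fold change -1.89). The cell cycle homology region (CHR, TTTGAA) was found in the promoters of 25 of 35 of the mitosis genes (71.4%, against 15.1% of all), and the CCAAT box in 26 (74.3%, against 42.5%), on either strand. For 3 genes with large rises that held both the stretch is shown, with both kinds of letters in capitals.
Ncapg (chr5:45669725-45669924, plus strand): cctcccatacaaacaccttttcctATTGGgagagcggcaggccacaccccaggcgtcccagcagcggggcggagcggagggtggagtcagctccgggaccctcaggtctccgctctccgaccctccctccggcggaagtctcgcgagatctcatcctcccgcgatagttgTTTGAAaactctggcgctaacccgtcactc
Top2a (chr11:99024190-99024389, minus strand): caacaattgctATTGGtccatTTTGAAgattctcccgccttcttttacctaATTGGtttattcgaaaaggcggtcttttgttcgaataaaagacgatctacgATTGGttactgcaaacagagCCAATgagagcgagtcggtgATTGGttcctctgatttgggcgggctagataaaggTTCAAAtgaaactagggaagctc
Mki67 (chr7:135716380-135716579, minus strand): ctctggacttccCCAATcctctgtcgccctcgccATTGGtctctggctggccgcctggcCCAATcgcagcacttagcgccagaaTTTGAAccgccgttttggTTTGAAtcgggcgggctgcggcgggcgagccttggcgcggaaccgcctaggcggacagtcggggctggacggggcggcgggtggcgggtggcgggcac
Ncapg, a condensin subunit, was at 0.07, 0.04 and 0.02 FPKM after sham and 1.27, 1.37 and 1.17 after UIR. These shares describe the lists and not UIR: among all genes that rose under all 6 scalings the CHR was present for 16.4% and among those that fell for 14.7%, and the response element for 4.75% and 3.34%.

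Other motifs were searched in the same way, each share set beside that of all genes with a promoter. HNF4 letters (CAAAGTCCA) lay in the promoters of 1 of 27 proximal tubule segment genes (3.7%, against 0.551%). The PU.1 site (GAGGAAGT) was in 1 of 18 macrophage genes (5.56%, against 3.79%). The SRF CArG box was in 0 of 20 fibroblast genes (1.56% of all) and the AP-1 site (TGANTCA) in 0 of 19 immediate-early genes (6.79% of all). The PPAR repeat (AGGTCA and AGGTCA with any base between) was in 0 of 31 peroxisomal genes (0.0576% of all), and the ERRA half-site (TCAAGGTCA) in 0 of 23 genes of mitochondrial dynamics (0.321% of all). The E-box CACGTG was in 14 of 35 lysosomal genes (40%, against 10.9% of all). No match says only that these letters are not in this window.

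Endothelial genes rose in 31 of 39 cases (median log2 fold change 0.70), with Pecam1 at 14.5, 14 and 12.5 FPKM after sham and 38.1, 40.8 and 45.9 after UIR (log2 fold change 0.91). Selp, an adhesion molecule of inflamed endothelium, was low in both groups, at 0.07, 0.13 and 0.05 FPKM after sham and 1.5, 1.22 and 1.78 after UIR (log2 fold change 3.45). Car4, a membrane carbonic anhydrase shared by capillaries and proximal tubule, fell by 4.61. Of 10 lymphatic genes 9 rose and 0 fell, with Lyve1, a hyaluronan receptor that macrophages also carry, at 0.02, 0.12 and 0.05 FPKM after sham and 0.99, 0.96 and 1.65 after UIR. Schwann cell and neural genes were few and low: 9 of 10 tested rose, with the glial factor Sox10 at 0, 0.05 and 0.07 FPKM after sham and 0.9, 0.9 and 0.36 after UIR.

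Some genes were all but silent in WT sham and expressed in WT UIR. 52 genes had at most 1 count in each WT sham library and at least 1 FPKM in each WT UIR library, and 1 gene, Lrrc52, met the reverse rule (3.22, 2.91 and 3.36 FPKM after sham and 0.05, 0.05 and 0.05 after UIR). The highest after UIR was Mucl1, a mucin-like gene, at 47, 66.3 and 24.2 FPKM, followed by Sprr2f. Il1rn, the antagonist of the interleukin-1 receptor, was at 23.2, 13.4 and 22.3 FPKM, and the stromelysin Mmp3 at 14.4, 11 and 19.1. Crisp1, a secreted protein known from the epididymis, was at 23.2, 14.4 and 9.29, and the inhibitory receptor Cd200r1 of myeloid cells at 6.33, 4.84 and 6.23. The membrane mucin Muc4 was at 4.05, 3.44 and 3.31 FPKM and had 0 counts after sham. Of these 52 genes 36 also reached 1 FPKM in each of the 3 PTCKO UIR libraries, and 16 met the same rule between PTCKO sham and PTCKO UIR. Slc14a2 and Psca, described above, are among the 52 and were expressed in PTCKO sham.

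Genes commonly used to normalise quantitative PCR were called in 14 of 20 cases, no more often than the 78.6% of all genes. Of these 4 were upward and 10 downward, and 3 rises and 6 falls held under all 6 scalings. The median log2 fold change of -0.21 was 0.50 without scaling. Gapdh fell by 1.99 and Sdha, a subunit of respiratory complex II, by 2.46, and each fall held under all 6 scalings. B2m, Gusb and Actb rose by 2.54, 1.56 and 1.15, each under all 6 scalings.

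The UIR effect in WT was set against that in the libraries labelled PTCKO, in which Wwp2 was not lower, by the interaction term over all 12 libraries. 3288 genes were called (21.5%), and 1085 of them had the higher UIR effect in WT, against 2579 of 3797 without scaling. Of the 15322 genes tested 1085 were thus called higher in WT and 2203 lower, or 2579 and 1218 without scaling. List counts below are read against these. For S1 and S2 markers the WT effect was the lower. Among S1 markers 11 of 12 were called with a larger fall in WT and 0 with a smaller one, and the median fall was -3.45 in WT and -1.88 in PTCKO on the log2 scale. In S2 the counts were 6 and 0 of 9, and in S3 3 and 1 of 12, with medians of -3.89 and -3.48. Of the 32 amino acid breakdown enzymes 23 fell further in WT and 0 less. These S1 counts ranged from 8 to 12 when each library was left out in turn, and those of the enzymes fell to 15 without PTCKO UIR 3. Mitochondrial ribosomal protein genes were called lower in WT in 65 of 78 cases, in 38 without scaling and in 34 without WT UIR 1. Matricellular genes were called higher in WT in 14 of 42 cases, and in 8 without WT UIR 1. Interferon-stimulated genes were called higher in WT in 11 of 48 cases, in 19 without scaling and in 4 without WT sham 3. The count over all genes went from 3288 to 1743 without WT UIR 1, to 1743 without PTCKO UIR 3, to 2054 without PTCKO UIR 1 and to 2186 without WT sham 3.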

How the data were processed

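RNA-seq of kidney from 12 libraries, 3 in each of 4 groups, was used as deposited, and libraries were grouped by their titles. Per the submitters' processing notes, the build was GRCm38.p6 and the tools included Bowtie2, RSEM and DESeq2, without versions or roles. The authors deposited 1 table, which gives read counts, FPKM and TPM for each gene in each library, per the file headers. Many of the deposited read counts were not whole numbers (30.8% to 35.4% of values per library, tolerance 1e-06), so they were taken as RSEM expected counts, that is, estimated counts. The deposited FPKM and TPM values are scaled to transcript length and to library total, as their names in the file headers say. RSEM divides reads between near-identical transcripts by estimate, so single histone, globin, Ugt, Gst, Cyp and Oas genes and other close copies are uncertain. The authors' group averages were not used, and the use of strand in counting is not stated.

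Expected counts were rounded to whole numbers. The tests used edgeR 4.0.16 in R 4.3.3 (filterByExpr, TMM, quasi-likelihood), with 1 coefficient per group over all 12 libraries and 8 residual degrees of freedom. They were two-sided, with Benjamini-Hochberg adjustment over all 15322 genes tested. The contrasts were WT UIR minus WT sham, and that UIR effect minus the UIR effect in PTCKO. Levels are deposited FPKM per library. Alternatives used RLE, upper-quartile or no scaling, DESeq2 1.42.0, limma 3.58.1 on log2(FPKM + 1) or log2(TPM + 1), a pseudocount of 0.1, no filter, the WT libraries alone, a replicate block, a test against a 1.5-fold change, and each library left out in turn. No fold of UIR over sham is given for genes with 3 counts or fewer in a group, and fitted differences between genotypes of such genes are no bounds. List medians with genes at 0 in a group set against 3 counts over that group differed from the plain medians by at most 0.55, among 11 lists with such genes.

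The lists and the genes named were chosen with earlier results of these data known, so counts within a list are descriptions. Named were the first 4 genes of each list, its 3 largest called changes and up to 3 against its main direction, the largest changes over all genes, the most abundant and the silent genes, and the largest differences between genotypes. Foxi1, Psme1, Psme2, the promoter genes Cxcl1, Cxcl2, Cxcl3, Oas1a and Trim30a, and Wwp2 lie outside that rule, and some genes that the rule named and 1 of the motifs searched are left out of the text. Promoters came from RefSeq (GRCm38.p6) and were matched by gene identifier for 12151 of the tested genes, and 12 motifs were searched in them. Total counts per library open the results, and at these totals the values of genes with a few counts are limited by counting error. In counts simulated from the WT sham means over 13824 genes, 60, 58 and 58 tested genes were changed 1.5-fold, 2-fold and 4-fold in WT UIR. Of these 50.0%, 77.6% and 93.1% were recovered, and 5.15% of the 136 calls were false. Few genes changed there and most did in the data, so these rates are not the error of the calls reported above.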

Additional observations from a re-analysis of the deposited data

Results flagged for a closer look

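The following genes had among the largest called differences of the UIR effect between WT and the libraries labelled PTCKO (effect in WT minus effect in PTCKO, log2, edgeR interaction over 12 libraries), with a mean of at least 5 FPKM in 1 group.

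Cyp4f18, a cytochrome P450 of myeloid cells, had the difference of -3.44 (SE 0.37, adjusted p = 0.00137). It stood at 0.31, 0.4 and 0.63 FPKM in WT sham and at 0.96, 1.15 and 1.16 in WT UIR, against 0.27, 0.46 and 0.31 in PTCKO sham and 7.63, 8.54 and 6.46 in PTCKO UIR. The 3 PTCKO UIR libraries lay above the other 9.

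The beta-globin genes Hbb-b1 and Hbb-b2 had differences of 7.37 (adjusted p = 0.0141) and 7.48 (adjusted p = 0.0221) on the same scale. The call of Hbb-b2 was lost without PTCKO sham 1 or PTCKO UIR 3. Hbb-b1 was at 163, 392 and 8.11 FPKM in WT sham, at 389.7, 678 and 677 in WT UIR, at 232, 5.13 and 106 in PTCKO sham and at 2.19, 0.79 and 2.82 in PTCKO UIR. Within each sham group 1 library was far below the others. A list of platelet and erythroid genes, 12 of them tested, held 0 called differences between genotypes. For PTCKO its share of TPM was 0.21%, 0.26% and 0.11% after sham, then 0.22%, 0.47% and 0.81% after UIR. For WT the shares were 0.15%, 0.15% and 0.18% after sham, then 0.34%, 0.61% and 0.26%. The low values of Hbb-b1 and Hbb-b2 thus do not stand for that list, and their cause was not tested.

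The histone gene H3c14 had a fitted difference of 17 (adjusted p = 0.00591), which is no bound, because whole groups were at 0. It was at 0 FPKM in each WT sham and PTCKO UIR library, at 3.39, 0 and 4.41 in WT UIR and at 4.16, 8.4 and 8.19 in PTCKO sham. The histone gene H2bc23 had a fitted difference of -9.89 (adjusted p = 0.0267), again no bound. It was at 0, 17.4 and 0 FPKM in WT sham, at 0, 0.18 and 0 in WT UIR, at 0, 0.24 and 0 in PTCKO sham and at 5.58, 9.7 and 0.09 in PTCKO UIR. The difference was -1.10 without WT sham 2, and its call was also lost in DESeq2 and without WT UIR 1 or any 1 of the PTCKO sham libraries.

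Sirpb1b, a myeloid receptor gene with close copies, had a fitted difference of -5.32 (adjusted p = 0.0336), no bound either. It was at 0, 0.25 and 0.15 FPKM in WT sham, at 3.88, 3.72 and 5.18 in WT UIR, at 0 in each PTCKO sham library and at 5.27, 5.62 and 5.51 in PTCKO UIR. Levels after UIR thus lay close together in both genotypes, and the call was lost without WT sham 2, WT sham 3, WT UIR 1, PTCKO UIR 1, PTCKO UIR 3 or any 1 of the PTCKO sham libraries.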

How the results depend on the processing

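The count of genes called for UIR against sham in WT was 12038 and stayed between 11523 and 13391 under every alternative but 1: testing against a 1.5-fold change left 7958. Without scaling and in limma the share of called genes that were higher was 78.7% and 78.5% to 82.1%, against 53.6%. Leaving out 1 WT library at a time gave 11523 to 11740 calls. Of the 229 genes named with the WT comparison, 219 kept their direction and their call under every alternative run. The call was lost under at least 1 alternative for 10 of them, and the direction turned for 3. Wwp2 turned from -0.56 to 0.15 without scaling, and to 0.18, 0.35 and 0.19 in limma on log2(FPKM + 1), log2(TPM + 1) and log2(FPKM + 0.1). Clic5 turned from -0.65 to 0.062, 0.062, 0.23 and 0.065 in the same order, and Tigit from -0.86 to 0.10 in limma on log2(TPM + 1). The cause was not tested.

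Counts of called list members moved by over 1.5 times in 207 of 860 comparisons with another scaling, 0 of them with RLE, 14 with upper-quartile scaling, 60 without scaling and 62 and 71 with limma on FPKM and TPM. Leaving out 1 WT library moved 17 of 1032. The difference between genotypes was called for 3288 genes, for 3797 without scaling, 3880 in DESeq2 and 3046 without the filter. Leaving out 1 library of the 4 groups gave 1743 to 4565. The labels do not say whether replicate numbers pair the samples. Same-numbered WT sham and UIR libraries correlated at 0.054, -0.033 and 0.041 in their deviations from the group means. Those with unlike numbers ran from -0.076 to 0.034, and so few values cannot settle whether samples were paired. With a replicate block 11899 genes were called in WT and 2798 for the difference. The block ended the call of Sirpb1b for the difference (adjusted p = 0.086) and of no other gene named for it. Genes at a few counts per library are limited by depth. Folds of UIR over sham are withheld only for those with 3 counts or fewer in a group, so some of the folds given rest on few counts.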

Other observations

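Several genes known from the epididymis were among the 52 that were silent in WT sham and expressed in WT UIR. They were picked out after their values were seen. Beside Crisp1, Defb47, a beta-defensin gene, was at 2.96, 2.14 and 2.69 FPKM in WT UIR, and the protease inhibitor Eppin at 2.09, 2.88 and 1.86. Wfdc6b, another inhibitor of that family, was at 1.75, 3.8 and 1.75, and the defensin Defb28 at 1.46, 2.19 and 1.03. In PTCKO UIR Defb47 was at 0.42, 0.33 and 0.51 FPKM and Eppin at 0.46, 0.36 and 0.22, and each WT UIR library lay above each PTCKO UIR library for both. Crisp1 was at 4.91, 10.2 and 4.34 FPKM in PTCKO UIR, where the groups overlapped. Each of these genes had at most 1 count in every sham library of both genotypes.

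Transcript length went with the direction of the WT change. With genes in 5 classes of equal size by effective length, the median log2 fold change was -0.25 in the shortest class, then -0.02, 0.12 and 0.23, and 0.31 in the longest. The median effective lengths of these classes ran from 1145 to 6228 bases.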
